A study of Homo sapiens with 4 samples.

Results

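MALAT1, NEAT1, KCNQ1OT1, H19, GAS5, SNHG1, SNHG5, SNHG12, ZFAS1 and DANCR are long noncoding RNAs, and they were followed here in colon cells given sturgeon chondroitin sulfate (SCS). The members were the rows of the deposited table that carry these 10 gene names, which gave 11 rows of 64962 because MALAT1 is listed in 2 rows. The whole table holds 18650 loci above 0. The cells were HT-29, a human colon cancer line, and NCM460, which served in the study as the normal colon line. Each line was sequenced as an untreated control and after 24 h with SCS at 100 μg/mL, with 1 library for each of the 4 conditions. Differences within a line therefore have no replicate check and could not be tested, and intervals cover counting error only. A change shared by both lines could be tested with 1 residual degree of freedom, but it was not, because the genes were chosen on these values. They were selected on their fragment counts in these same libraries, where MALAT1 and NEAT1 stood out, so their changes are given as a description.

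MALAT1 and NEAT1 are made from neighbouring genes on chromosome 11 and stay in the nucleus. MALAT1 gathers in nuclear speckles, the stores of splicing factors, and NEAT1 is the scaffold of paraspeckles, bodies that hold RNA-binding proteins. KCNQ1OT1 is an unspliced RNA that silences imprinted genes in cis. A snoRNA host gene carries small nucleolar RNAs, the guides of ribosomal RNA modification, in its introns. Its spliced exons leave for the cytoplasm, where nonsense-mediated decay degrades many of them while they are translated. H19 is an imprinted RNA expressed mainly in the embryo.

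Totals ran from 1156568 to 1654764 fragments. The share of fragments from the mitochondrial genome was 35.8% in the HT-29 control and 13.8% with SCS, and 62.3% in the NCM460 control and 46.3% with SCS. Levels in CPM are fragments scaled to a common library size by TMM, which equalises the bulk of loci between libraries. A locus was called higher or lower when its change was over 1.5-fold and its 95% counting interval excluded no change. Folds are ratios of CPM, and log2 fold changes carry a prior count of 2, which draws those of low genes towards 0. Of 12 colon epithelial markers, 9 had fragments in the HT-29 control, where CDX1, CDX2 and GPA33 were at 0. In the NCM460 control 6 had fragments, and KRT20, CDX1, VIL1, LGALS4, CDH17 and GPA33 were at 0. CDX2 had 14 fragments in the NCM460 control, and KRT19 had 1285 there against 720 in the HT-29 control. CDH17 had 1 fragment in the HT-29 control. In RNA from whole cultures, a change in the cells present and a change in RNA per cell cannot be told apart.

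With SCS, all 3 nuclear-retained RNAs were higher in both lines. MALAT1 was 3.63-fold higher in HT-29 cells and 4.97-fold higher in NCM460 cells. NEAT1 was 3.14-fold and 2.72-fold higher, and KCNQ1OT1 was 2.43-fold and 3.19-fold higher. Over all loci tested, 16.8% were called higher in HT-29 cells and 15.4% in NCM460 cells, and 4.22% of the loci tested in both lines were called higher in both.

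MALAT1 (GENCODE 29, GRCh38, chr11:65497688-65506516, plus strand) held 8348 fragments in the HT-29 control and 35636 with SCS. It held 772 in the NCM460 control and 5328 with SCS. Both SCS libraries were thus above their control, and HT-29 was above NCM460 in either condition. The log2 fold change was 1.86 in HT-29 cells (95% counting interval 1.827 to 1.896) and 2.31 in NCM460 cells (2.20 to 2.42). As a share of fragments from the nuclear genome, MALAT1 went from 0.786% to 2.58% in HT-29 cells and from 0.152% to 0.857% in NCM460 cells. These shares do not rest on TMM scaling and move the same way. By deposited FPKM, fragments per kilobase of transcript, MALAT1 ranked 64th of all loci in the HT-29 control and 19th with SCS. In NCM460 cells the rank went from 181 to 46.

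Both rows named MALAT1 are listed with the same identifier (ENSG00000278217) and the same 95 bases inside the gene, although their values differ. The identifier is that of a short RNA element annotated within MALAT1, shown here because the table's coordinates describe it and not the whole gene. A second short RNA, mascRNA, is cut from the end of MALAT1, and the table gives its identifier to the NEAT1 locus. A related copy begins at the base after the annotated end of NEAT1. The GENCODE 29 sequences follow, 5′ to 3′ on the plus strand of GRCh38, with no base set apart.
MALAT1 element, chr11:65502914-65503008: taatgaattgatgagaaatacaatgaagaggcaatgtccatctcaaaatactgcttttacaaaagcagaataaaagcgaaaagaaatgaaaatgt
mascRNA, chr11:65506117-65506173: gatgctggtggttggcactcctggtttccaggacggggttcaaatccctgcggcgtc
copy at the end of NEAT1, chr11:65445541-65445598: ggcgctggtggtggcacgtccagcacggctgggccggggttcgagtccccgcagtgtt

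The row taken as MALAT1 lies among rows of plus-strand genes, 49 of 49 neighbours with a known strand. The neighbours of the second row are minus-strand genes, 46 of 46. Which transcript the second row counts is not given in the sources used here. It held 1510 and 6361 fragments in HT-29 cells without and with SCS, and 109 and 948 in NCM460 cells. Its log2 fold changes were 1.84 and 2.64, against 1.86 and 2.31 for the row taken as MALAT1. The ratio of the row taken as MALAT1 to the second row was 5.53 in the HT-29 control and 5.60 with SCS. In NCM460 cells it was 7.08 and 5.62, a log2 change of -0.33 (-0.65 to -0.02).

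NEAT1 (chr11:65422774-65445540, plus strand) held 1011 fragments in the HT-29 control and 3734 with SCS. It held 84 in the NCM460 control and 317 with SCS, and each SCS library was above its control. The log2 fold change was 1.65 (1.55 to 1.75) in HT-29 cells and 1.43 (1.09 to 1.81) in NCM460 cells. The ratio of MALAT1 to NEAT1 within a library, which no scaling between libraries can move, was 8.26 in the HT-29 control and 9.54 with SCS. In NCM460 cells it was 9.19 and 16.8, a log2 change of 0.87 (0.49 to 1.24). With the trend on GC content subtracted, MALAT1 was at 1.26 and NEAT1 at 0.80 in NCM460 cells.

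KCNQ1OT1 (chr11:2608328-2699994, minus strand) is annotated as 1 exon of 91667 bases inside the protein-coding gene KCNQ1. It held 192 and 547 fragments in HT-29 cells without and with SCS, and 14 and 62 in NCM460 cells. The log2 fold change was 1.27 (1.04 to 1.52) in HT-29 cells and 1.61 (0.82 to 2.63) in NCM460 cells. On the scale of log2(FPKM + 1), which understates changes of low values, they were 0.44 and 0.31 and short of 1.5-fold. KCNQ1, the potassium channel gene on the opposite strand, went from 22 to 5 fragments and from 15 to 2. The ratio of KCNQ1OT1 to KCNQ1 was higher with SCS by 3.64 on the log2 scale in HT-29 cells (2.18 to 5.42) and by 4.98 in NCM460 cells (2.65 to 8.30). KCNQ1 has a GC content of 63.7%, and with the trend on GC content subtracted the NCM460 log2 fold changes were 0.93 for KCNQ1OT1 and -2.002 for KCNQ1, against 1.61 and -2.72 before. Counting by strand is not stated, so fragments of KCNQ1OT1 and of unspliced KCNQ1 RNA cannot be told apart.

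**Figure D1:**
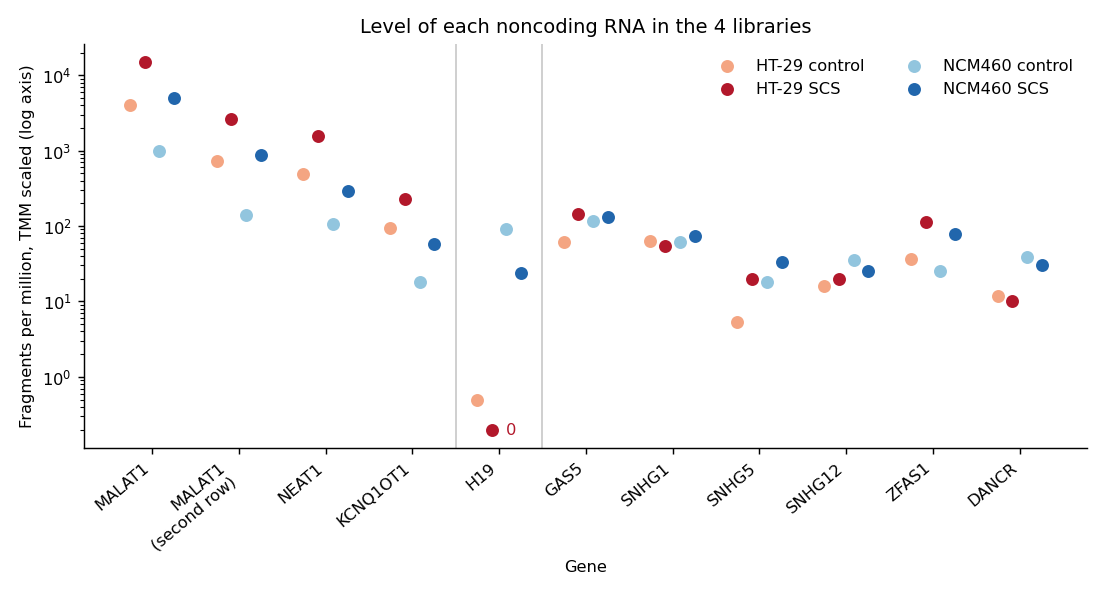
TMM-scaled CPM (log axis) of each gene in the 4 libraries, 1 point per library; grey lines part the nuclear-retained RNAs, H19 and the snoRNA hosts, and the H19 point marked 0 is drawn at the foot of the axis. MALAT1, its second row, NEAT1 and KCNQ1OT1 are each highest in HT-29 with SCS and lowest in the NCM460 control, and of the 6 hosts ZFAS1 shares these ends.

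Together the 3 nuclear-retained RNAs, both MALAT1 rows included, made up 1.04% of the nuclear fragments of the HT-29 control and 3.35% with SCS. In NCM460 cells their share was 0.193% and 1.07%. The 6 snoRNA hosts made up 0.0372% of the HT-29 control and 0.0631% with SCS, and 0.0457% of the NCM460 control and 0.0653% with SCS. Mitochondrial fragments do not enter these shares. The share of mitochondrial fragments was lower in both SCS libraries, and any further part of it in these differences was not tested.

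GC content moved with the change, mainly in NCM460 cells. Across loci averaging 10 CPM or more, Spearman's rho between the log2 fold change and the GC content of the transcript was -0.74 in NCM460 cells over 7342 loci and -0.17 in HT-29 cells over 7538. These loci share the same libraries, so the values are a description. The GC content of MALAT1 is 40.3%, of NEAT1 44.1% and of KCNQ1OT1 43.7%. Of NCM460 loci with a GC content under 45%, 55.0% were called higher and the median log2 fold change was 1.06. The 90th percentile of NCM460 loci in the same bin of GC content was 2.10 for MALAT1, 1.48 for NEAT1 and 1.81 for KCNQ1OT1. Of the 3, only MALAT1 (2.31) was above it, with NEAT1 at 1.43 and KCNQ1OT1 at 1.61. With the trend on GC content subtracted, the NCM460 log2 fold change of MALAT1 was 1.26, of NEAT1 0.80 and of KCNQ1OT1 0.93. All 3 were still called higher, beside 5.57% of all loci. In HT-29 cells the same subtraction left 1.66 for MALAT1, 1.58 for NEAT1 and 1.18 for KCNQ1OT1, all called higher, beside 14.5% of all loci.

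**Figure D2:**
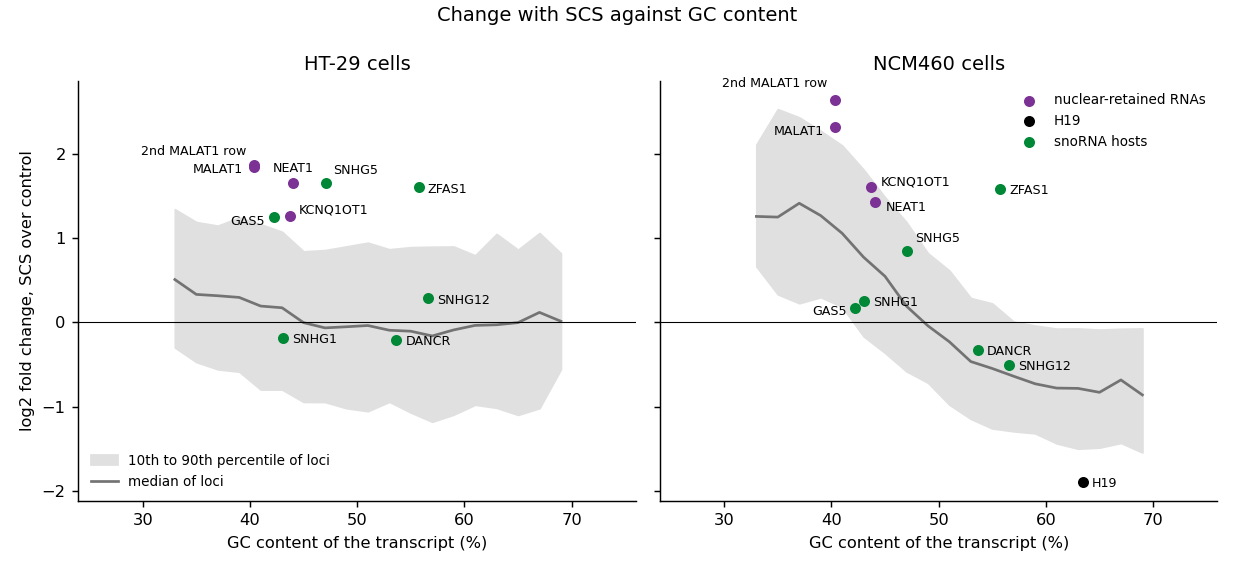
Log2 fold change of SCS over control (vertical axis) against the GC content of the transcript in percent, in HT-29 cells (left) and NCM460 cells (right); the line is the median and the band the 10th to 90th percentile of loci averaging 10 CPM or more, in bins of 2 percentage points. The median slopes down in NCM460 cells, where MALAT1 (2.31) and ZFAS1 (1.58) lie above the band and H19 (-1.89) lies below it.

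H19 (chr11:1995176-2001470, minus strand) went the other way. It held 72 fragments in the NCM460 control and 26 with SCS, a log2 fold change of -1.89 (-2.65 to -1.28) that was called lower, as were 13.8% of all loci. After subtraction of the GC trend it was -1.17, also called lower. HT-29 cells had 1 fragment of H19 without SCS. With SCS they had 0 of 1383424 nuclear fragments, which allows a share of up to 0.000217%, that of 3 fragments. H19 was therefore not compared in HT-29 cells. Between the controls, H19 was 189 times higher in NCM460 cells, with a counting interval from 32.9 to 7573 since HT-29 had 1 fragment. With the prior count the log2 ratio of HT-29 to NCM460 was -5.74, and -4.73 after subtraction of the GC trend.

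The 6 snoRNA hosts did not move as a group. In HT-29 cells GAS5, SNHG5 and ZFAS1 were called higher with SCS (3 of 6), while SNHG1, SNHG12 and DANCR were not called. In NCM460 cells ZFAS1 alone among the 6 was called higher. Their median log2 fold change was 0.77 in HT-29 cells and 0.21 in NCM460 cells, beside 0.07 and 0.03 over all loci tested. With libraries scaled by total fragments alone, which moved the median of all loci by 0.60 in NCM460 cells, the host median there was 0.89 and GAS5, SNHG1 and SNHG5 were also called higher.

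ZFAS1 (chr20:49278178-49295738, plus strand), which starts antisense to ZNFX1, held 74 and 270 fragments in HT-29 cells without and with SCS. It held 20 and 86 in NCM460 cells, so that both SCS libraries were about as far above their controls. The log2 fold change was 1.60 (1.26 to 2.03) in HT-29 cells and 1.58 (0.92 to 2.41) in NCM460 cells. With a GC content of 55.7% it lies where the NCM460 trend is negative, and subtraction of the trend raised the NCM460 value to 2.10. MALAT1, NEAT1, KCNQ1OT1 and ZFAS1 were the 4 of the 10 genes called higher in both lines, with and without that subtraction. After subtraction 1.22% of all loci were called higher in both lines.

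GAS5 (chr1:173863900-173868882, minus strand), named for its build-up in growth-arrested cells, held 125 fragments in the HT-29 control and 352 with SCS. In NCM460 cells it held 92 and 144, a small difference beside that in HT-29 cells. The log2 fold change was 1.24 (0.96 to 1.57) in HT-29 cells and 0.17 (-0.21 to 0.57) in NCM460 cells. The difference between the lines has no replicate check. GAS5 has a GC content of 42.2%, and after subtraction of the GC trend its NCM460 value was -0.68 (-1.07 to -0.29) and was called lower, as were 6.25% of all loci. Its direction in NCM460 cells thus depends on that step.

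SNHG5 (chr6:85660950-85678748, minus strand) held 11 fragments in the HT-29 control and 47 with SCS, and 14 and 36 in NCM460 cells. Its log2 fold change was 1.65 (0.90 to 2.96) in HT-29 cells and 0.84 (-0.04 to 1.89) in NCM460 cells, where the interval includes no change. The HT-29 call was lost when the libraries were thinned to equal nuclear depth, at 0.98.

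SNHG1 (chr11:62851988-62855914, minus strand), host of a cluster of box C/D snoRNAs, held 128 fragments in the HT-29 control and 132 with SCS, and 48 and 80 in NCM460 cells. Its log2 fold changes were -0.18 (-0.55 to 0.17) and 0.26 (-0.27 to 0.81). SNHG12 (chr1:28578538-28583132, minus strand) held 33 fragments in the HT-29 control and 48 with SCS, and 28 and 27 in NCM460 cells, with log2 fold changes of 0.29 (-0.36 to 0.99) and -0.50 (-1.34 to 0.29). DANCR (chr4:52712404-52720351, plus strand), named as an RNA that opposes differentiation, held 24 and 24 fragments and 30 and 33. Its log2 fold changes were -0.21 (-1.11 to 0.65) and -0.32 (-1.09 to 0.43). At this depth no change was detectable for these 3 hosts, and changes up to the ends of the intervals are not shut out. The loci of SNHG1, SNHG5, SNHG12 and ZFAS1 are listed together with 6, 2, 3 and 1 named snoRNAs, whose fragments cannot be separated from those of the host.

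**Figure D3:**
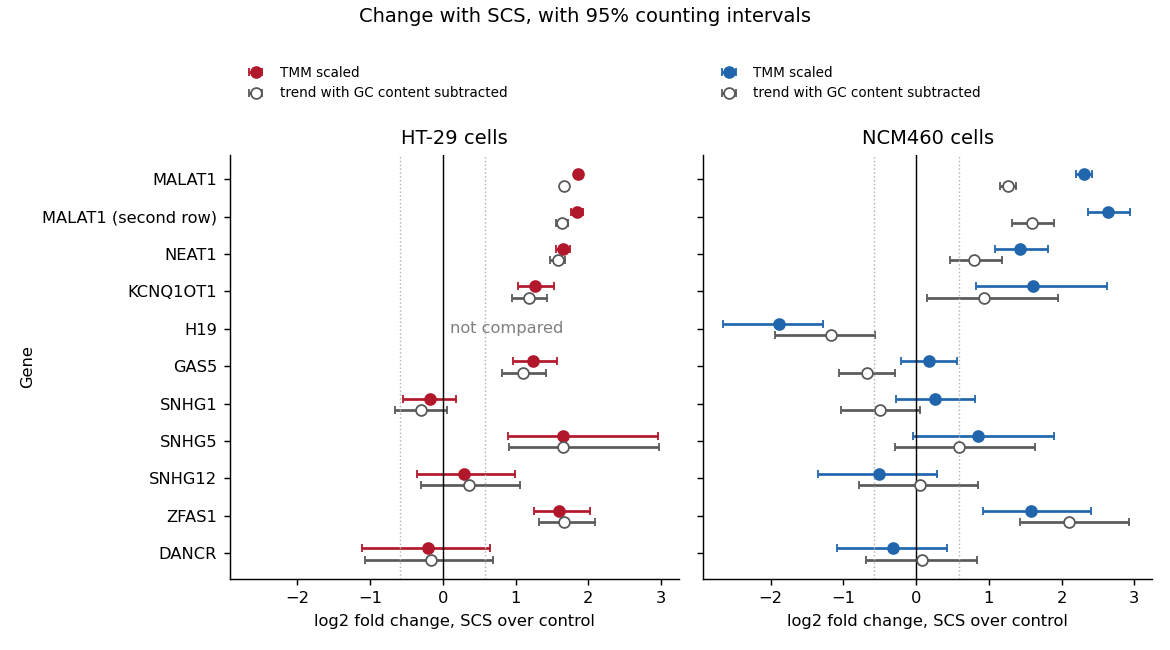
Log2 fold change of SCS over control with 95% counting intervals (horizontal axis) for each gene in HT-29 cells (left) and NCM460 cells (right); filled points are TMM scaled, open points have the trend with GC content subtracted, and dotted lines mark 1.5-fold. The nuclear-retained RNAs and ZFAS1 lie to the right of 0 in both panels, and GAS5 in NCM460 cells moves from 0.17 to -0.68 with the subtraction.

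Transcripts of many snoRNA hosts begin with a cytosine and a run of pyrimidines, the 5′ terminal oligopyrimidine tract that ties their translation to growth signals. The bases around the RefSeq start of each of the 6 hosts are shown for that reason, from 20 bases before the start to 29 after its first base, on GRCh38.p14, 5′ to 3′ on the strand of the gene. Capitals mark the unbroken run of C and T that begins at the start base where that base is C.
GAS5, chr1:173869016-173869065, minus strand: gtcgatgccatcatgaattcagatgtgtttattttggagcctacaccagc
SNHG1, chr11:62855856-62855905, minus strand: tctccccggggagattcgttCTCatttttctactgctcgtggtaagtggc
SNHG5, chr6:85678704-85678753, minus strand: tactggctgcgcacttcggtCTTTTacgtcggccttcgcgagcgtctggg
SNHG12, chr1:28581844-28581893, minus strand: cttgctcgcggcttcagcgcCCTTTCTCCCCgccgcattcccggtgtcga
ZFAS1, chr20:49278622-49278671, plus strand: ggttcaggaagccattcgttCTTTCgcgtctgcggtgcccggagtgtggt
DANCR, chr4:52712374-52712423, plus strand: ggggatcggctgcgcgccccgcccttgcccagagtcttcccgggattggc

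A start at C with a run of at least 5 pyrimidines was found for SNHG5, SNHG12 and ZFAS1, 3 of 6 hosts, for 3 of 14 starts of other noncoding snoRNA hosts (21.4%), and for 4.07% of 35116 starts in the RefSeq table. ZFAS1 and SNHG5, both called higher in HT-29 cells, have runs of 5, and SNHG12, which was not called, has the longest run, of 11. GAS5, called higher in HT-29 cells, starts at A in this table, at a base 163 bases from the GENCODE start. The RefSeq starts of SNHG12 and ZFAS1 lie 1259 and 464 bases from theirs. Annotated starts can differ from those used in these cells, and a match is a description of the letters only. Of the 10 genes, 8 had an entry. NEAT1 and KCNQ1OT1 had none.

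Ratios within a library take no scaling, but they are not free of the GC trend where GC contents differ, as between ZFAS1 (55.7%) and SNHG1 (43.1%). MALAT1 over SNHG1 was 65.2 in the HT-29 control and 270 with SCS, and 16.1 and 66.6 in NCM460 cells. The log2 change was 2.05 in HT-29 cells (1.69 to 2.41) and 2.05 in NCM460 cells (1.49 to 2.60). ZFAS1 over SNHG1 was higher with SCS by 1.82 (1.29 to 2.36) in HT-29 cells and by 1.36 (0.44 to 2.32) in NCM460 cells. GAS5 over SNHG1 was higher by 1.45 (0.97 to 1.93) in HT-29 cells, and its change in NCM460 cells was -0.09 (-0.77 to 0.58). GAS5 and SNHG1 have nearly the same GC content, 42.2% and 43.1%. MALAT1 over GAS5 was higher by 0.60 (0.29 to 0.90) in HT-29 cells and by 2.14 (1.73 to 2.54) in NCM460 cells.

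**Figure D4:**
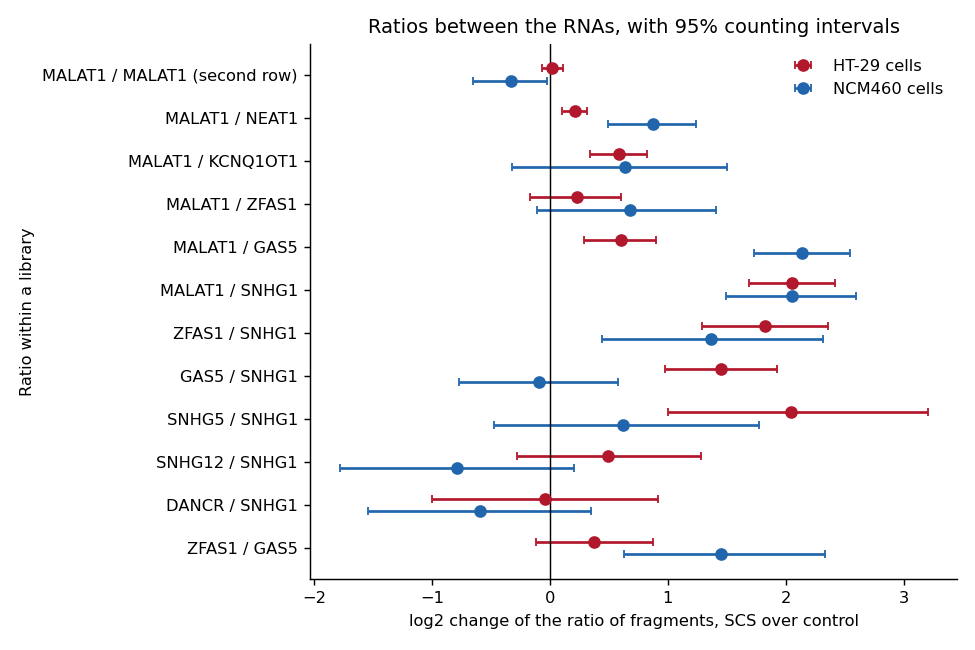
Log2 change with SCS of the ratio of fragments between pairs of RNAs within a library, with 95% counting intervals, in HT-29 cells (red) and NCM460 cells (blue). MALAT1 over SNHG1 changed by 2.05 in both lines, and GAS5 over SNHG1 lies at 1.45 in HT-29 cells and at -0.09 in NCM460 cells.

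Without SCS the lines also differed. MALAT1, NEAT1 and KCNQ1OT1 were higher in the HT-29 control than in the NCM460 control, by log2 ratios of 2.04 (1.93 to 2.15), 2.18 (1.87 to 2.53) and 2.31 (1.60 to 3.28). Of all loci, 25.3% were called higher in HT-29 cells and 23.1% lower. Among the hosts GAS5 (-0.94), SNHG5 (-1.53), SNHG12 (-1.10) and DANCR (-1.61) were called lower in HT-29 cells, and SNHG1 (0.02) and ZFAS1 (0.47) were not called. This comparison shares its control libraries with both SCS comparisons, and rho with GC content was -0.61. After subtraction of that trend MALAT1 was at 0.84, NEAT1 at 1.47 and KCNQ1OT1 at 1.54, all called higher, beside 18.7% of all loci. The same step took SNHG12 to -0.53, no longer called, SNHG1 to -0.84, called lower, and ZFAS1 to 0.99, called higher. With libraries scaled by total fragments alone, no host was called lower and the log2 ratio of GAS5 turned to 0.14.

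Levels between genes can be compared only per length, and the deposited FPKM is the scale at hand for that. It does not follow fragments alike across rows and libraries. The 2 MALAT1 rows held 8348 and 1510 fragments in the HT-29 control but were at 591 and 470 FPKM. Between the controls MALAT1 was 4.12-fold higher in HT-29 cells by CPM, but at 591 against 354 by FPKM. The order given here is that of the deposited values only. MALAT1 was the highest of the 10 genes in each library, at 591 and 1671 in HT-29 cells without and with SCS and at 354 and 1072 in NCM460 cells. GAS5 came next in each library, at 101 and 236 in HT-29 cells and at 229 and 215 in NCM460 cells. ZFAS1 followed in HT-29 cells, at 51.3 and 158. In NCM460 cells it was at 41.7 in the control, below SNHG1, DANCR, SNHG5, SNHG12 and H19, and at 104 with SCS, again next after GAS5. NEAT1 was at 44.6 and 128 in HT-29 cells and at 10.2 and 18.998 in NCM460 cells. KCNQ1OT1 was at most 1.27 in any library, since its fragments spread over a very long transcript. Neighbours in the middle of this order, such as SNHG12 at 15.2 and DANCR at 15.4 in the HT-29 control, rest on 33 and 24 fragments and cannot be ordered without replicates.

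Other noncoding snoRNA hosts were read for comparison, 17 of them tested in each line. In HT-29 cells 6 were called higher and 2 lower, beside 16.8% and 14.8% of all loci. In NCM460 cells 3 were called higher and 1 lower, beside 15.4% and 13.8% of all loci. Their median log2 fold change was 0.06 in HT-29 cells and -0.16 in NCM460 cells. In HT-29 cells the highest was EPB41L4A-AS1, from 18 to 76 fragments (1.71, interval 1.09 to 2.68), and the lowest SNHG17, from 36 to 17 (-1.18, -2.24 to -0.45). Both of these calls were lost after thinning to equal nuclear depth, at 0.81 and -0.76. In NCM460 cells the lowest was EPB41L4A-AS1, from 28 to 17 fragments (-1.13, -2.16 to -0.27). Over all loci, 1.87% were called higher in HT-29 cells and lower in NCM460 cells. The highest there was SNHG4, from 26 to 173 fragments (2.22, 1.66 to 2.92), but its row is shared with the protein-coding gene MATR3 and cannot be split. C6orf48, also known as SNHG32, was the 1 host of this list that had its own row and was called higher in both lines with and without the GC step, from 61 to 175 and from 21 to 52 fragments. Its NCM460 call was lost with DESeq2 size factors (0.71) and by FPKM (0.46).

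Protein-coding snoRNA hosts, such as ribosomal protein genes, were called higher in 2 and lower in 2 of 25 in HT-29 cells, and higher in 10 and lower in 1 of 25 in NCM460 cells. After subtraction of the GC trend the NCM460 counts were 6 and 0. For these and the following lists the shares over all loci were 16.8% higher and 14.8% lower in HT-29 cells, 15.4% and 13.8% in NCM460 cells, and 5.57% and 6.25% in NCM460 cells after that subtraction. NOP56, a core protein of box C/D particles and itself a host, was the lowest in HT-29 cells at -1.43 (-1.79 to -1.13). Proteins of the snoRNA particles and factors of their assembly, 15 tested together, had 0 called higher and 7 lower in HT-29 cells. The 7 were FBL, NOP56, DKC1 and NHP2 of the particles, and the factors NOLC1, RUVBL1 and RUVBL2. The median of the 15 was -0.38, and the shares over all loci were 16.8% and 14.8%. In NCM460 cells 3 were called higher and 2 lower, and 1 and 0 after subtraction of the GC trend.

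Factors of nonsense-mediated decay, the pathway that degrades many spliced host transcripts, had 4 of 18 called higher and 3 lower in HT-29 cells, near the 16.8% and 14.8% of all loci. The helicase UPF1 was the lowest at -1.13 (-1.58 to -0.76) and the exonuclease XRN1 the highest at 1.06 (0.54 to 1.72). The call of XRN1 was lost by FPKM (0.39). In NCM460 cells 5 were called higher and 3 lower, and 1 and 2 after subtraction of the GC trend.

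Proteins of the bodies in which NEAT1 and MALAT1 gather were called lower more often than higher in HT-29 cells. Of 17 paraspeckle proteins 1 was called higher, 6 lower and 10 not called in HT-29 cells, beside 16.8% and 14.8% of all loci, with a median of -0.52, from SMARCA4 at -1.11 (-1.45 to -0.82) to CIRBP at 0.86 (0.40 to 1.41). Of 18 loci of nuclear speckle proteins 1 was called higher, 7 lower and 10 not called, with a median of -0.49, from the splicing factor SRSF3 at -1.12 to SRSF11 at 0.64. The HT-29 call of SRSF11 was lost after thinning to equal nuclear depth (0.24), after subtraction of the GC trend (0.37) and by FPKM (0.24). In NCM460 cells 4 paraspeckle proteins were called higher and 3 lower, and 1 and 4 after subtraction of the GC trend, with NONO, a NEAT1-binding protein, lowest at -0.93. The 1 still called higher after subtraction was MATR3 (0.98), whose row is shared with the snoRNA host SNHG4. Of the speckle proteins 9 were called higher and 1 lower in NCM460 cells, and 2 and 3 after subtraction of the GC trend.

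Other nuclear noncoding RNAs had 3 of 10 called higher in HT-29 cells, namely TUG1 (92 to 198 fragments), JPX (9 to 41) and LINC-PINT (15 to 55), and 0 lower. The HT-29 call of TUG1 was lost by FPKM (0.53). In NCM460 cells TUG1 was called higher (5 to 21) and PVT1 lower (28 to 17) of 6 tested, and neither was called after subtraction of the GC trend. Of cytoplasmic noncoding RNAs 2 of 5 were called higher in HT-29 cells, OIP5-AS1 (157 to 392 fragments) and EPB41L4A-AS1, and LINC00152 was called lower (22 to 5). In NCM460 cells 2 of 6 were called higher, OIP5-AS1 (11 to 68) and FGD5-AS1 (3 to 24), and EPB41L4A-AS1 was called lower. The NCM460 value of OIP5-AS1 was 2.06, 0.86 after subtraction of the GC trend and -0.59 by FPKM.

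The protein-coding neighbours of MALAT1 and NEAT1 on chromosome 11 had 1 of 11 called higher and 1 lower in HT-29 cells, with a median of -0.15. In NCM460 cells 0 of 10 were called higher and 8 lower, with a median of -1.19, and 0 and 2 after subtraction of the GC trend. Among genes in and around the imprinted region of KCNQ1OT1 and H19, 2 of 10 were called higher and 1 lower in HT-29 cells. Those called higher were PHLDA2 (252 to 538 fragments) and SLC22A18 (47 to 106), and the 1 called lower was KCNQ1. In NCM460 cells CDKN1C, a cell cycle inhibitor gene of this region, was called higher, from 6 to 25 fragments. There 5 of 9 were called lower, PHLDA2 and SLC22A18 among them. Of these 5, KCNQ1 alone was still called lower after subtraction of the GC trend.

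Among 2199 loci averaging 50 CPM or more, the loci nearest to MALAT1 over both SCS log2 fold changes and the log2 ratio of the controls included STARD4 and the second MALAT1 row, at distances of 0.29 and 0.48. STARD4, a sterol carrier, had log2 values of 2.12, 2.21 and 1.99. The nearest to NEAT1 were SEL1L, KCNQ1OT1 and IDH1, at 0.40, 0.44 and 0.44. The nearest to GAS5 were TGIF1, LAMC1 and TMED9, at 0.32, 0.35 and 0.37. The distance is taken over 3 values from 4 libraries, 2 of which enter 2 of the values.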

How the data were processed

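RNA-seq of 4 libraries was used, 1 for each of HT-29 and NCM460 cells with and without SCS, grouped by the submitters' labels. Libraries were made with a NEBNext Ultra RNA kit, and no setting for strand is stated. The submitters' processing notes name bcl2fastq 2.17.1.14, cutadapt 1.9.1, Bowtie2, HTSeq 0.6.1 and hg19, while the coordinates of the table are those of GRCh38. The authors used Cuffdiff for differential expression.

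The deposited count column is a signal, fragment counts divided by the authors by a size factor of each library. When each column was divided by its smallest step, 99.8% to 99.9% of the values above 0 came out whole to within 2% of a fragment, and they were rounded. The FPKM values were deposited by the authors beside them. The design had assumed whole counts. Rows without a gene name (26) were left out, at most 0.0352% of a library. Adjacent rows with the same values were merged as overlapping genes, and 1812 loci hold more than 1 gene. GC content came from GENCODE 29 (98.9% of loci) and start sequences from RefSeq.

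Fragments were scaled by edgeR 4.0.16 TMM factors over the 4 libraries (prior count 2). Loci averaging 1 CPM or more over the pair were compared. Intervals (95%) came from the exact Clopper-Pearson limits of the share of a locus in 1 library of the pair. A floor of 3 fragments is 1.25 to 3.85 CPM. No count test of edgeR or DESeq2 was run, on the recovered fragments or otherwise, since 1 library per condition leaves no residual spread within a line. A model of line and SCS over all 4 libraries would leave 1 residual degree of freedom and was not fitted. The call rule was tested on simulated counts that held counting error only. They had no spread between cultures and no GC trend, so the rule was not tested against either. Alternatives were DESeq2 1.42.0 size factors, total fragments, TMM without mitochondrial rows, a prior count of 0.5, all loci with 1 fragment, a mean of 5 CPM, thinning to the smallest nuclear total, lowess trends on expression or GC content subtracted (span 0.3), and FPKM plus 1. For FPKM plus 1 no counting interval was formed, and a change over 1.5-fold sufficed for a call. After seeing the data, 2 more were added, with the second MALAT1 row in place of the first and with both summed.

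The members and lists were chosen with earlier results of these data known. All 10 members are named. Of each further list, the highest and the lowest locus in each line among those averaging 5 CPM or more could be named, and others were chosen after seeing their values. The 3 loci nearest to MALAT1, NEAT1 and GAS5 by Euclidean distance were named, except 1 that is not reported here. Colon epithelial markers summed to 6526 CPM in the HT-29 control and 3535 with SCS, and to 4346 and 2659 CPM in NCM460 cells. Mesenchymal markers summed to 5.87 CPM in the HT-29 control and 8.74 with SCS, and to 118 and 130 CPM in NCM460 cells. At most 1 of 7 blood and endothelial markers had fragments in any library. Of 10 small structural RNAs, 2 were called higher and 1 lower in HT-29 cells. In NCM460 cells 1 was called higher and 3 lower, and 4 and 0 after subtraction of the GC trend.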

Additional observations from a re-analysis of the deposited data

Results flagged for a closer look

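Among 35 noncoding loci examined in both lines, EPB41L4A-AS1 was called in opposite directions. Its log2 fold change with SCS was 1.71 in HT-29 cells (18 to 76 fragments) and -1.13 in NCM460 cells (28 to 17 fragments). The difference between the lines was not tested, since each condition has 1 library. Over all loci tested in both lines, 1.87% were called higher in HT-29 cells and lower in NCM460 cells. The HT-29 call was lost after thinning to equal nuclear depth (0.81) and the NCM460 call with total fragments only (-0.46).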

How the results depend on the processing

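The labels carry no replicate numbers. The cell line pairs each SCS library with its control, and a fit with the line as a block over the 4 libraries was not run. MALAT1 and NEAT1 were called higher with SCS in both lines under all 10 alternatives, as was ZFAS1. KCNQ1OT1 fell short of 1.5-fold on the scale of log2(FPKM + 1) in HT-29 cells (0.44) and NCM460 cells (0.31), a scale that understates changes of low values. Loci called in NCM460 cells numbered 3690, 1489 with the GC trend subtracted and 7474 by FPKM. A call by FPKM needed only a change over 1.5-fold, without a counting interval, so calls on that scale follow a looser rule. The median of the nuclear-retained RNAs was 1.93 (total fragments), 1.55 (expression trend) and 1.498 (FPKM) in HT-29 cells, 0.93 (GC trend) and 0.84 (FPKM) in NCM460 cells, and 3.27 (total fragments), 2.55 (expression trend), 1.47 (GC trend) and 0.74 (FPKM) between the controls. Total fragments alone moved the median of all loci by 0.26 in HT-29 cells, 0.60 in NCM460 cells and 0.94 between the controls. They also moved the share of calls that were higher from 53.1% to 73.8%, from 52.7% to 94.1% and from 52.3% to 85.1%. With them GAS5 (0.85), SNHG1 (0.93) and SNHG5 (1.46) were called higher in NCM460 cells, the host median there was 0.89, and between the controls the host median (0.044) and GAS5 (0.14) turned positive and CIRBP in NCM460 cells was at 0.0044. By FPKM the shares were 40.6%, 37.8% and 36.6%, SNHG12 was called lower in NCM460 cells (-0.75) and OIP5-AS1 turned to -0.59 there. With the second MALAT1 row in place of the first, MALAT1 was at 1.84 in HT-29 cells and 2.64 in NCM460 cells, and with both summed at 1.86 and 2.36. In both lines it stayed the highest of the 3 nuclear-retained RNAs, so their median with SCS could not move. Between the controls MALAT1 was the lowest of the 3. Their median there went from 2.183 to 2.305 with the second row, and was 2.183 with both summed. Apart from the differences that follow from a scaling's own construction, the cause was not tested. Depth limits the hosts SNHG5, SNHG12 and DANCR, which rest on fewer than 50 fragments per library.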
